A study of Mus musculus with 16 samples.

Results

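The 26S proteasome genes of the left ventricle were followed through pressure overload in mice of both sexes. The members are the probe sets whose annotation gives exactly 1 gene symbol starting with Psma, Psmb, Psmc or Psmd, with the immunoproteasome genes Psmb8, Psmb9 and Psmb10 set apart. The rule found 65 of the 22690 probe sets, for 36 genes. It also took Psmc3ip, which encodes a partner of the ATPase Psmc3 that acts in meiotic recombination and is no subunit. Its probe set was among the 13 that a filter on dim signals removed, so that 52 probe sets for 34 genes were tested, all of them for subunits or for chaperones that bind them. Psma8, the alpha subunit of the testis proteasome, was dim as well, with signals of 6.6 to 104.9.

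RNA of the left ventricle came from C57BL/6J mice of 12 to 14 weeks, taken 14 days after transverse aortic constriction (TAC), a band that narrows the aortic arch, or after a sham operation. Male TAC, female TAC, male sham and female sham each held 4 biological replicates on 4 Affymetrix arrays. The anaesthesia is described for TAC alone, while buprenorphine for pain is listed for both operations. RNA was taken from tissue, so fewer cells of a type and less RNA per cell cannot be told apart.

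The proteasome is the protease that takes apart proteins tagged with ubiquitin. Its 20S core is a barrel of alpha and beta rings with the cutting sites inside the beta rings, and its 19S regulatory particle caps the barrel. The base of the cap holds the ATPases that unfold the substrate, and the lid removes the ubiquitin. In heart muscle the proteasome clears damaged and misfolded proteins and takes part in the turnover of sarcomere proteins. When the proteasome is short of capacity, the transcription factor Nfe2l1 can raise many subunit genes together through the antioxidant response element in their promoters.

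Stretches of 250 bases before the start site are shown as background for 3 core genes that passed the test in the average over the sexes. Passing genes with the antioxidant response element were taken first, then those of smallest p, among genes with 1 listed promoter. Of the genes that passed in the average, Psmb5 alone held the element in a listed promoter. All stretches are from RefSeq, build GRCm38.p6, and capitals mark 2 motifs searched on both strands: the antioxidant response element (TGACNNNGC) and the CCAAT box (CCAAT), whose matches do not overlap in these stretches.
Psmb5, chr14:54617996-54618245, minus strand: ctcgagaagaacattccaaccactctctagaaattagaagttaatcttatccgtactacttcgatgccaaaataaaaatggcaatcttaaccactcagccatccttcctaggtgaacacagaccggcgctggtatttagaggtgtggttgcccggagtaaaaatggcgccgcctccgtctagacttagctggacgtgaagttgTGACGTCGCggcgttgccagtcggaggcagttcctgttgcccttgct
Psma3, chr12:70974373-70974622, plus strand: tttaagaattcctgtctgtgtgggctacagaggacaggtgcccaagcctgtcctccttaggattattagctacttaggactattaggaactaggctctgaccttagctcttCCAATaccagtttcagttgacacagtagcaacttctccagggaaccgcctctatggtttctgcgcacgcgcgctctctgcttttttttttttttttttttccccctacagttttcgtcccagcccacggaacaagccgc
Psma1, chr7:114276117-114276366, minus strand: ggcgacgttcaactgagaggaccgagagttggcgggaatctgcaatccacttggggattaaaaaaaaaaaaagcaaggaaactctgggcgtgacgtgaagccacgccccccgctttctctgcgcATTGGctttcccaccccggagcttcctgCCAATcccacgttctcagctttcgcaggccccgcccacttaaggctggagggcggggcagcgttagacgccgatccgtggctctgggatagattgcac
Psmb5 holds the antioxidant response element from 47 to 39 bases before its start, and Psma3 and Psma1 hold, of these motifs, CCAAT boxes alone. Of the 35 member genes other than Psmc3ip, 28 were found in the promoter table. The element was in the listed promoters of 5 of them (17.9%), Psmb5, Psmb6, Psmc6, Psmd9 and Psmd12, against 11.5% of all 27025 genes in the table. The CCAAT box was in 11 of 28 (39.3%) against 37.5% of all genes. A match of letters is no measure of binding.

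Proteasome genes moved by small amounts after banding. With each gene read by its brightest probe set, 8 genes were higher and 2 lower past the threshold. Among the higher genes, Psma6 and Psmd11 had other tested probe sets that went down, and for Psmd11 such a fall also passed (1429370_a_at, log2 -0.35). The clearest differences were in the alpha ring of the core. There Psma6 was 1.41-fold and Psma3 1.34-fold higher and Psma1 1.33-fold lower with the sexes averaged. Differences are of log2(signal + 16), and folds are on that scale. In that average, 10 of the 34 genes passed the threshold on their probe set of highest mean (adjusted p below 0.05, limma). That is 29.4% of the genes, beside 26.5% of all 8272 genes tested. The higher ones made up 23.5% of the members against 13.4% of all genes, and the lower ones 5.88% against 13.1%. The 8 higher genes were all read by probe sets with _a, _s or _x in the name. The 2 lower ones were read by probe sets without such a letter, and these letters are explained below. The median log2 difference was 0.04 over the 34 genes, with a range from -0.41 to 0.58, and -0.01 over all genes. The median size of the difference, without its sign, was 0.15 for the members and 0.22 for all genes.

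Counted by probe set, 15 of 52 passed in the average over the sexes, 12 higher and 3 lower (28.8%, against 28.7% of all 13576 probe sets). Of all probe sets 12.9% were higher and 15.8% lower. In males 6 of 52 passed, 4 higher and 2 lower (11.5%, against 17.8% of all, 8.07% higher and 9.77% lower). In females 8 of 52 passed, 6 higher and 2 lower (15.4%, against 15.1% of all, 6.46% higher and 8.6% lower). Counted by gene, 4 of 34 passed in males, 3 higher and 1 lower (against 15.9% of all genes), and 6 of 34 in females, 4 higher and 2 lower (against 13.1%). The balance of higher and lower depended on the scaling of the arrays: with median centring it was 5 to 1 in males, 10 to 0 in females and 16 to 2 in the average, and with quantile normalization 2 to 2, 5 to 3 and 11 to 5. The signals of TAC and sham arrays did not overlap for 4 higher and 3 lower member probe sets in males (7.69% and 5.77%, against 8.75% and 10.9% of all). In females this held for 9 higher and 5 lower (17.3% and 9.62%, against 8.29% and 11.6%). In both sexes at once and in 1 direction the groups stood apart on 4 member probe sets, 2 higher (3.85%, against 3.87% of all) and 2 lower (3.85%, against 5.75%). These were 1437144_x_at (Psma6) and 1448442_a_at (Psma3), which were higher, and 1415695_at (Psma1) and 1429370_a_at (Psmd11), which were lower.

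**Figure D1:**
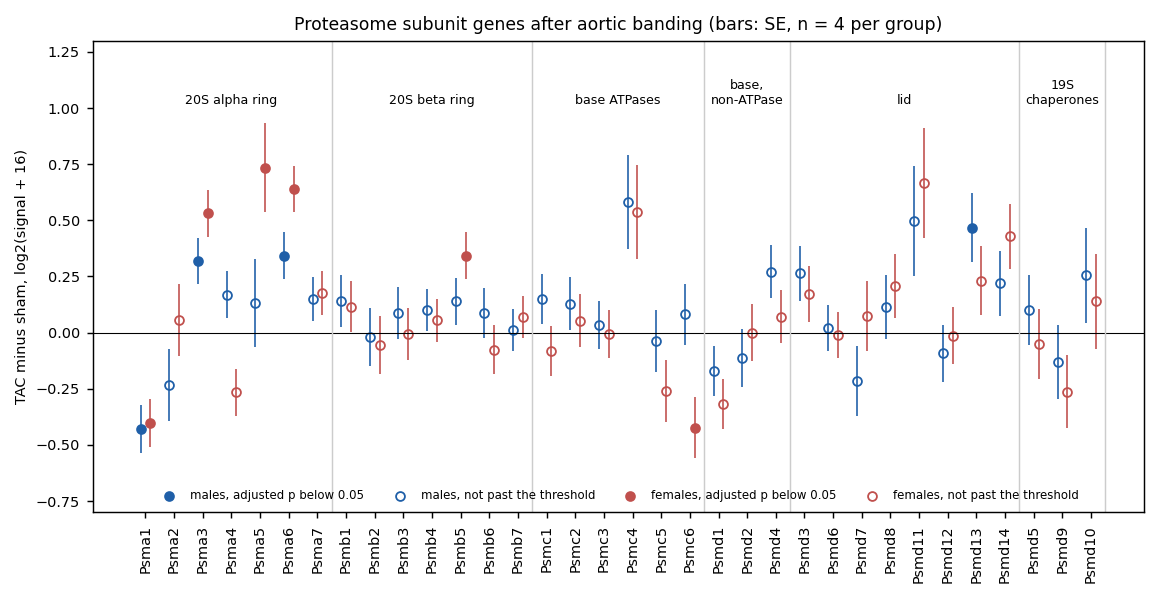
TAC minus sham on the log2(signal + 16) scale for the 34 subunit genes, on the probe set of highest mean, ordered by place in the proteasome, in males (blue) and females (red). Bars are SE (n = 4 per group), and filled points passed adjusted p below 0.05. Values lie from -0.43 to 0.74, and most filled points lie in the alpha ring.

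Measures of RNA quality and of cell makeup moved with the operation, and their part in these differences was not tested. Fits with quality measures as covariates are given below. The Gapdh control signal at the 3′ end divided by that at the 5′ end was 0.837 to 0.921 in male shams and 1.004 to 1.164 in male TAC, and 0.785 to 0.918 in female shams and 0.958 to 1.03 in female TAC. The log2 signal of the 5′ 18S rRNA control was 12.7 to 13.8, 9.06 to 13.2, 10.74 to 12.8 and 9.31 to 10.73 in the same order. The 7 cardiomyocyte markers had signals of at least 5522 on every array. In the average, 5 of 8 fibroblast and 5 of 7 tested macrophage markers were higher and 7 of 7 cardiomyocyte markers lower. Summed fibroblast marker signals ran from 18203 to 22033 in male shams, 32458 to 55676 in male TAC, 21635 to 25640 in female shams and 31088 to 44387 in female TAC. Summed macrophage marker signals ran from 6397 to 9030, 10549 to 11359, 6548 to 7461 and 8579 to 12794, and cardiomyocyte sums from 245863 to 297433, 201512 to 237460, 252543 to 274343 and 173958 to 214288. None of 7 endothelial markers passed. Of the smooth muscle, atrial and erythroid lists, 1 of 3, 1 of 1 and 0 of 1 tested markers were higher, and no marker of any list was at 0. The 15 member probe sets called in the average came down to 4 once the 18S signal was added to the fit (14.1% of all probe sets passed) and to 1 with the Gapdh ratio (4.71% of all passed). Under 18S, Psma6 (1437144_x_at), Psma3 and Psmd6 (1423696_a_at) were higher. Psmd11 was lower there, on 1429370_a_at (log2 -0.43, adjusted p = 0.0390), while its probe set of highest mean did not pass. Under the Gapdh ratio the call was Psmc2 (1435859_x_at, log2 0.48, adjusted p = 0.0497). It had not passed without the ratio, so that none of the 10 gene calls held with that ratio. The Gapdh ratios of TAC and sham arrays did not overlap in either sex, so that fit cannot tell the ratio from the operation. The 18S signals of TAC and sham arrays did not overlap in females, so there the 18S fit has the same limit. In males the 18S signals overlapped.

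The alpha ring, whose subunits form the gate of the core and dock the cap, held the 3 smallest p values of the averaged comparison. Of its 7 tested genes, Psma3, Psma5 and Psma6 rose, Psma1 fell, and Psma2, Psma4 and Psma7 did not pass, with the sexes averaged. Of all genes tested, 13.4% rose and 13.1% fell. The median log2 difference of the 7 was 0.16. Psma6 signals were 3925, 4037, 3423 and 3922 in male shams 1 to 4, 4476, 5409.8, 4207 and 5426 in male TAC 1, 2, 4 and 5, 3735, 3896, 3838 and 3375 in female shams 1 to 4, and 5584, 5365, 6366 and 5844 in female TAC 1, 2, 3 and 5. All 4 TAC arrays stood above all 4 sham arrays in each sex. Psma6 rose 1.41-fold over the sexes (log2 0.49 ± 0.073 SE, adjusted p = 3.63e-05), by 0.34 in males (adjusted p = 0.0249) and by 0.64 in females (adjusted p = 0.000287). The male call was lost on leaving out any of these arrays (adjusted p in parentheses): male TAC 2 (0.0874), male TAC 5 (0.0780) or male sham 3 (0.0903), and with quantile normalization (0.0512), no intensity trend in the fit (0.0628), a fit of only the groups compared (0.0616), the 18S signal in the fit (0.0783) and the Gapdh ratio in the fit (0.614), with 0.0110 to 0.614 as the span over the alternatives. The Gapdh ratio took the male Psma6 difference to 0.21. This probe set, 1437144_x_at, holds probes that can match other transcripts. The other tested probe sets of Psma6 went the other way without passing in the main scaling, at -0.16 (adjusted p = 0.0995) for 1416506_at, which passed with quantile normalization (-0.20, adjusted p = 0.0358), and -0.54 (adjusted p = 0.125) for 1435317_x_at. The averaged Psma6 difference was 0.57 (adjusted p = 0.00235) with the 18S signal in the fit and 0.38 (adjusted p = 0.152) with the Gapdh ratio.

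Psma3 signals were 3914, 3948, 4066 and 3804 in male shams 1 to 4, 5219.9, 5319.6, 4247 and 4932 in male TAC 1, 2, 4 and 5, 2916, 3279, 3530.1 and 3563 in female shams 1 to 4, and 4205, 5294, 5212 and 4545 in female TAC 1, 2, 3 and 5. Here too the groups did not overlap in either sex, and Psma3 has a single probe set. Psma3 rose 1.34-fold over the sexes (log2 0.43 ± 0.073 SE, adjusted p = 0.000170), from 3933 ± 108 to 4929.6 ± 484 in males (SD, n = 4) and from 3322 ± 299 to 4814 ± 527 in females. The log2 difference was 0.32 in males (adjusted p = 0.0366) and 0.53 in females (adjusted p = 0.00154). The male call was lost on leaving out any of these arrays (adjusted p in parentheses): male TAC 1 (0.0884), male TAC 2 (0.108), male TAC 5 (0.0646), male sham 1 (0.0696), male sham 2 (0.0655), male sham 3 (0.0591) or male sham 4 (0.0847), and with quantile normalization (0.0870), no intensity trend in the fit (0.0832), a fit of only the groups compared (0.0527), the 18S signal in the fit (0.163) and the Gapdh ratio in the fit (0.960), with 0.0158 to 0.960 as the span over the alternatives. In females the Psma3 call was lost with the Gapdh ratio in the fit (0.33, adjusted p = 0.185), which took the male difference to 0.029. The averaged Psma3 difference was 0.47 (adjusted p = 0.0115) with the 18S signal in the fit and 0.18 (adjusted p = 0.503) with the Gapdh ratio.

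Psma1 went the opposite way from the ring genes that rose, Psma3, Psma5 and Psma6, on their probe sets of highest mean. Psma1 signals were 2605, 2497, 2337 and 2290.4 in male shams 1 to 4, 1869.8, 1703, 1595 and 2074 in male TAC 1, 2, 4 and 5, 2557, 2516, 2424 and 2787 in female shams 1 to 4, and 2135, 1973, 1982 and 1699.7 in female TAC 1, 2, 3 and 5. Every TAC array lay below every sham array of its sex. Psma1 fell 1.33-fold over the sexes (log2 -0.41 ± 0.076 SE, adjusted p = 0.000312). It fell by 0.43 on the log2 scale in males (adjusted p = 0.00805) and fell by 0.40 in females (adjusted p = 0.0144). The female call was lost on leaving out female TAC 5 (adjusted p = 0.0548), and with median centring (0.117), the 18S signal in the fit (0.116) and the Gapdh ratio in the fit (0.242), with 0.00538 to 0.242 as the span over the alternatives. In males the Psma1 call was lost with the 18S signal (-0.27, adjusted p = 0.336) and with the Gapdh ratio (-0.34, adjusted p = 0.371) in the fit. The averaged Psma1 difference was -0.29 (adjusted p = 0.108) with the 18S signal in the fit and -0.34 (adjusted p = 0.222) with the Gapdh ratio. Its remaining probe sets were dim, with signals of 3.3 to 128.1.

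Psma5 scattered widely among male TAC animals. Psma5 signals were 2351, 2154, 2573 and 2338 in male shams 1 to 4, 3842, 1835, 1886 and 3316 in male TAC 1, 2, 4 and 5, 2106, 2130.3, 1861 and 2581 in female shams 1 to 4, and 2811, 4546, 3527 and 3716 in female TAC 1, 2, 3 and 5. Male TAC 1 and 5 were above all male shams and male TAC 2 and 4 below them, while all female TAC arrays were above all female shams. Psma5 rose 1.35-fold over the sexes (log2 0.43 ± 0.14 SE, adjusted p = 0.0235) and 1.67-fold in females (log2 0.74, adjusted p = 0.0146), and its male difference of 0.13 did not pass (adjusted p = 0.708). The averaged call was lost on leaving out any of these arrays (adjusted p in parentheses): male TAC 1 (0.0523), male TAC 5 (0.0519), female TAC 2 (0.0543) or female sham 3 (0.0513), and with no intensity trend in the fit (0.0506), the 18S signal in the fit (0.0543) and the Gapdh ratio in the fit (0.519), with 0.00697 to 0.519 as the span over the alternatives. The female call was lost on leaving out any of these arrays (adjusted p in parentheses): female TAC 2 (0.0556) or female sham 3 (0.0506), and with the Gapdh ratio in the fit (0.204), with 0.00522 to 0.204 as the span over the alternatives. Its other tested probe set, 1424681_a_at, gave 0.14 in the average (adjusted p = 0.306).

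Of the alpha subunits that did not pass on the probe set of highest mean, Psma2 was at -0.09 (95% interval -0.32 to 0.15, not adjusted for the number of tests), Psma4 at -0.05 (-0.20 to 0.11) and Psma7 at 0.16 (0.02 to 0.31). The other Psma7 probe set, 1423568_at, rose by 0.25 (adjusted p = 0.0214). These values are averages over the sexes. Psma4 was at 0.17 in males (adjusted p = 0.297) and -0.27 in females (adjusted p = 0.0960). Psma2 was at -0.23 in males and 0.06 in females. For neither gene did the responses of the sexes differ by the test (adjusted p = 0.632 for Psma4 and 0.869 for Psma2).

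In the beta ring 1 of 7 genes passed in the average (26.5% of all genes did), the catalytic subunit gene Psmb5, and the median log2 difference was 0.04. Psmb5 signals were 2649.6, 2809.6, 2487 and 2993 in male shams 1 to 4, 2831, 3103, 2781 and 3339.9 in male TAC 1, 2, 4 and 5, 3084, 2507, 2614 and 2446 in female shams 1 to 4, and 3343, 3106, 3457 and 3580.3 in female TAC 1, 2, 3 and 5. The female groups did not overlap, while the male groups did. Psmb5, which carries the chymotrypsin-like site, rose 1.18-fold over the sexes (log2 0.24 ± 0.073 SE, adjusted p = 0.0170) and 1.27-fold in females (log2 0.34, adjusted p = 0.0290). In males the difference was 0.14 (adjusted p = 0.401). The female call was lost on leaving out any of these arrays (adjusted p in parentheses): female TAC 1 (0.0515), female TAC 3 (0.0639), female TAC 5 (0.0783), female sham 2 (0.0780), female sham 3 (0.0659) or female sham 4 (0.0866), and with quantile normalization (0.0610), no intensity trend in the fit (0.0635), the 18S signal in the fit (0.0546) and the Gapdh ratio in the fit (0.152), with 0.0102 to 0.152 as the span over the alternatives. The averaged Psmb5 difference was 0.29 (adjusted p = 0.109) with the 18S signal in the fit and 0.30 (adjusted p = 0.267) with the Gapdh ratio.

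The other catalytic genes had no detectable difference. Psmb6 signals were 3504, 2480.3, 2996 and 3174 in male shams 1 to 4, 3708, 3224, 3022 and 2915 in male TAC 1, 2, 4 and 5, 3285, 3149.7, 2996 and 3372 in female shams 1 to 4, and 3003, 3141, 2809.9 and 3188 in female TAC 1, 2, 3 and 5. The Psmb6 groups overlapped in both sexes. Psmb6, which carries the caspase-like site, differed by 0.01 in the average (95% interval -0.16 to 0.17, adjusted p = 0.968). Psmb7 signals were 13049, 11033, 13235 and 12850.2 in male shams 1 to 4, 13458, 12251, 12641 and 12118 in male TAC 1, 2, 4 and 5, 9120.2, 11273, 11452 and 11394 in female shams 1 to 4, and 10416, 11406, 11878 and 11544 in female TAC 1, 2, 3 and 5. The TAC and sham ranges of Psmb7, the gene of the trypsin-like site, overlapped in both sexes, and its difference was 0.04 (95% interval -0.10 to 0.18, adjusted p = 0.690). The structural beta subunits Psmb1, Psmb2, Psmb3 and Psmb4 lay between -0.04 and 0.13 on their probe sets of highest mean. Psmb4 rose on its other probe set, 1438984_x_at, by 0.42 (adjusted p = 0.0251).

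**Figure D2:**
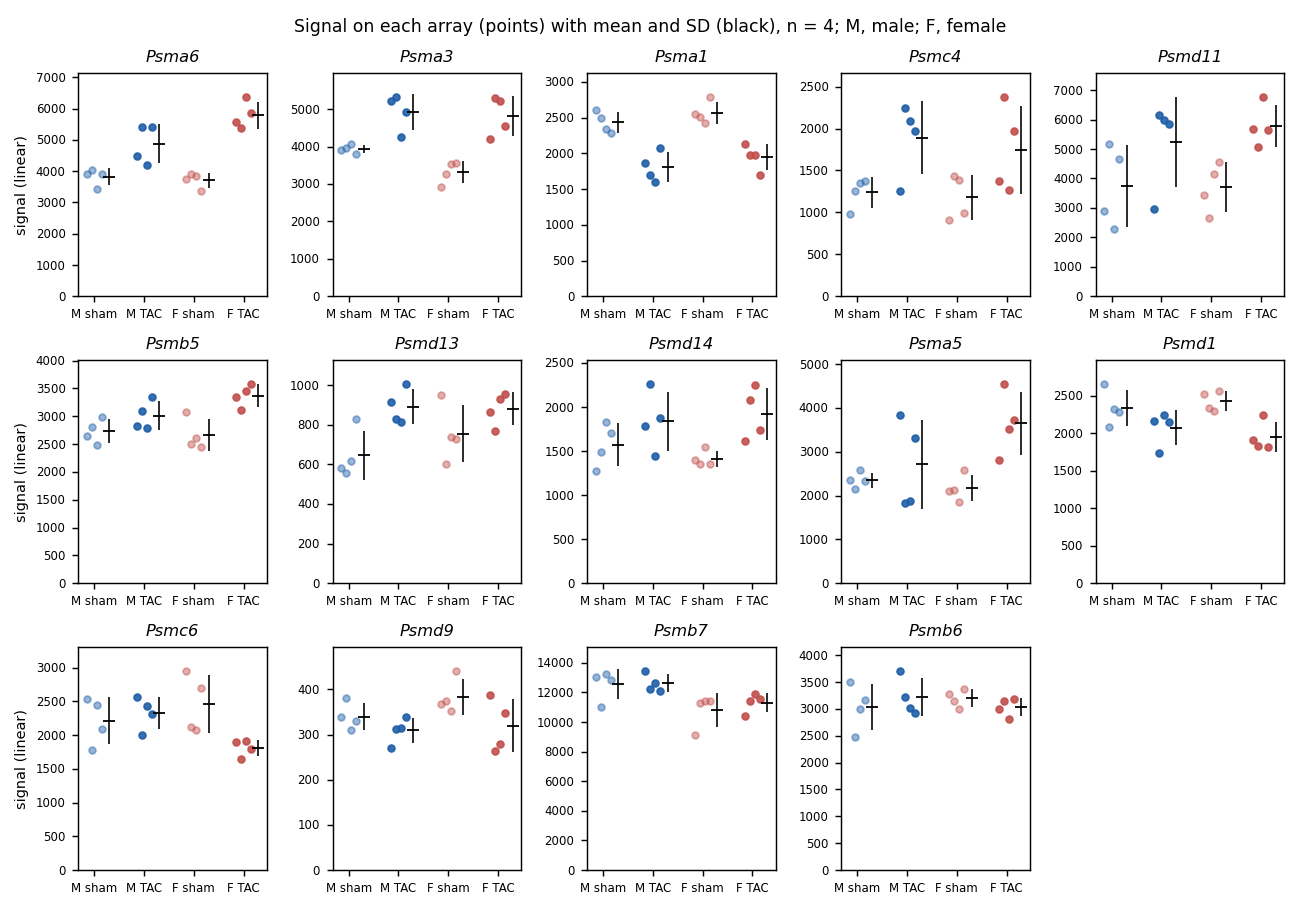
Signal on each array for the 14 subunit genes described singly, with the group mean and SD in black (n = 4; linear axes from 0). Psma6 and Psma3 are higher and Psma1 lower on every TAC array than on every sham array of the same sex, while Psmb6 and Psmb7 overlap.

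Of the 6 ATPases of the base, which pull the substrate into the core, Psmc4 alone passed in the average and Psmc6 alone in females. Psmc4 signals were 977, 1257, 1351 and 1373 in male shams 1 to 4, 1257, 2242, 2084 and 1972 in male TAC 1, 2, 4 and 5, 911, 1435, 1386 and 994 in female shams 1 to 4, and 1374, 2374, 1264 and 1969 in female TAC 1, 2, 3 and 5. Male TAC 1 and female TAC 1 and 3 lay within the range of their shams, and the other TAC arrays of Psmc4 lay above it. Psmc4 rose 1.47-fold over the sexes (log2 0.56 ± 0.15 SE, adjusted p = 0.00732), while the sexes alone did not pass (adjusted p = 0.0622 in males and 0.0942 in females). The averaged Psmc4 difference was 0.57 (adjusted p = 0.1205) with the 18S signal in the fit and 0.035 (adjusted p = 0.964) with the Gapdh ratio. Its other probe set, 1416291_at, was at 0.21 (adjusted p = 0.101).

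Psmc6 signals were 2528, 1774, 2446 and 2086 in male shams 1 to 4, 2564, 2002, 2426 and 2308 in male TAC 1, 2, 4 and 5, 2950.1, 2113, 2077 and 2702 in female shams 1 to 4, and 1897, 1648, 1907 and 1798 in female TAC 1, 2, 3 and 5. All female TAC arrays were below all female shams, and the male groups overlapped. Psmc6 fell 1.34-fold in females (log2 -0.42 ± 0.14 SE, adjusted p = 0.0389), against 0.08 in males (adjusted p = 0.742). The difference between the responses of the sexes was -0.50 ± 0.19 SE and did not pass (adjusted p = 0.664). The female call was lost on leaving out any of these arrays (adjusted p in parentheses): female TAC 1 (0.0538), female TAC 2 (0.102), female TAC 3 (0.0544), female TAC 5 (0.0741), female sham 1 (0.135) or female sham 4 (0.109), and with median centring (0.151), no filter on dim signals (0.0505), no intensity trend in the fit (0.0745), the 18S signal in the fit (0.110) and the Gapdh ratio in the fit (0.916), with 0.0226 to 0.916 as the span over the alternatives. The Gapdh ratio took the female Psmc6 difference to -0.048. On the other tested probe set of Psmc6, 1417770_s_at, the female fall did not pass (-0.17, adjusted p = 0.575). There the male difference was -0.11 (adjusted p = 0.726). The other ATPases, Psmc1, Psmc2, Psmc3 and Psmc5, lay between -0.15 and 0.09 in the average on their probe sets of highest mean. For Psmc2, at 0.09 on 1435859_x_at, the other tested probe set, 1426611_at, was at -0.23 (adjusted p = 0.0783). With quantile normalization 1426611_at passed (-0.27, adjusted p = 0.0436).

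Psmd1, the large scaffold of the base, was the only other gene that fell in the average on its probe set of highest mean. Psmd1 signals were 2656, 2087, 2318 and 2283 in male shams 1 to 4, 2165, 1729.6, 2248 and 2155 in male TAC 1, 2, 4 and 5, 2522, 2336, 2296 and 2557 in female shams 1 to 4, and 1908, 1829, 2245 and 1819 in female TAC 1, 2, 3 and 5. In females all TAC arrays were below all shams, and in males the groups overlapped. Psmd1 fell 1.19-fold over the sexes (log2 -0.24 ± 0.079 SE, adjusted p = 0.0250), and the call was lost on leaving out any of these arrays (adjusted p in parentheses): male TAC 2 (0.0591) or male sham 1 (0.0569), and with median centring (0.171) and the 18S signal in the fit (0.329), with 0.0105 to 0.888 as the span over the alternatives. With the Gapdh ratio its direction turned (log2 0.05). The ubiquitin-binding base subunits did not pass in the average, Psmd2 at -0.06 and Psmd4 at 0.17 (adjusted p = 0.692 and 0.140).

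In the lid 3 of 8 genes rose in the average (13.4% of all genes did), Psmd11, Psmd13 and Psmd14, on their probe sets of highest mean. The median log2 difference of the lid genes was 0.19. Psmd14 signals were 1277, 1486, 1826 and 1702 in male shams 1 to 4, 1782, 2261, 1447 and 1874 in male TAC 1, 2, 4 and 5, 1403, 1351, 1542 and 1351 in female shams 1 to 4, and 1611, 2075, 2254 and 1742 in female TAC 1, 2, 3 and 5. Psmd14, the enzyme that cuts ubiquitin chains off the substrate, rose 1.25-fold over the sexes (log2 0.32 ± 0.10 SE, adjusted p = 0.0213). Female TAC stood above female sham on all arrays, and the call was lost on leaving out male TAC 2 (adjusted p = 0.0522), and with the 18S signal in the fit (0.148) and the Gapdh ratio in the fit (0.994), with 0.00692 to 0.994 as the span over the alternatives. The Gapdh ratio took its difference to 0.0033.

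Psmd13 signals were 579, 557, 619 and 826 in male shams 1 to 4, 913, 828, 815 and 1005 in male TAC 1, 2, 4 and 5, 948, 602, 739 and 726 in female shams 1 to 4, and 864, 769.9, 929 and 956 in female TAC 1, 2, 3 and 5. Male TAC overlapped male sham through male sham 4, and female TAC overlapped female sham through female sham 1. Psmd13 rose 1.27-fold over the sexes (log2 0.35 ± 0.11 SE, adjusted p = 0.0192) and 1.38-fold in males (log2 0.47, adjusted p = 0.0390). Its other probe set, 1437220_x_at, rose by 0.30 in the average (adjusted p = 0.0408). The male call was lost on leaving out any of these arrays (adjusted p in parentheses): male TAC 1 (0.0773), male TAC 2 (0.0564), male TAC 5 (0.103), male sham 1 (0.0983), male sham 2 (0.110) or male sham 3 (0.0853), and with no filter on dim signals (0.0529), no intensity trend in the fit (0.0527), a fit of only the groups compared (0.0603), the 18S signal in the fit (0.1197) and the Gapdh ratio in the fit (0.169), with 0.0129 to 0.169 as the span over the alternatives. The Gapdh ratio took the male Psmd13 difference to 0.71. The averaged Psmd13 difference was 0.45 (adjusted p = 0.0853) with the 18S signal in the fit and 0.55 (adjusted p = 0.158) with the Gapdh ratio.

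The probe sets of Psmd11, a lid subunit that also touches the core, went both ways. Psmd11 signals were 2889, 5174, 2279 and 4658 in male shams 1 to 4, 2951, 6164, 5974 and 5846 in male TAC 1, 2, 4 and 5, 3436, 2646, 4142 and 4574 in female shams 1 to 4, and 5694, 5068, 6760.3 and 5628 in female TAC 1, 2, 3 and 5. This probe set, 1437080_s_at, scattered widely in males, with male TAC 1 among the shams. It rose by 0.58 over the sexes (log2, ± 0.17 SE, adjusted p = 0.0154). The averaged Psmd11 difference on that probe set was 0.71 (adjusted p = 0.0956) with the 18S signal in the fit and 0.51 (adjusted p = 0.472) with the Gapdh ratio. On 1429370_a_at, Psmd11 signals were 1261, 974, 1053 and 1066 in male shams 1 to 4, 849, 870.2, 864 and 724 in male TAC 1, 2, 4 and 5, 956, 1116, 996 and 1139 in female shams 1 to 4, and 853, 900.2, 829 and 798 in female TAC 1, 2, 3 and 5. There every TAC array was below every sham array of its sex, and the signal fell by 0.35 on the log2 scale (adjusted p = 0.00363). The remaining tested probe sets, 1440253_at and 1456059_at, did not pass (-0.06 and -0.11 in the average). In males 1456059_at was at -0.34 (adjusted p = 0.0690), with every TAC array below every sham array. In females it was at 0.12 (adjusted p = 0.575).

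Psmd6, another lid subunit, rose on 1423696_a_at by 0.39 in the average (adjusted p = 0.00212) and by 0.60 in females (adjusted p = 0.00264). On its probe set of highest mean, 1423697_at, the difference was 0.01 (95% interval -0.14 to 0.16). Psmd3, Psmd7, Psmd8 and Psmd12 did not pass, at 0.22, -0.07, 0.16 and -0.05. None of the 3 chaperones that hold the base during assembly passed, Psmd5 at 0.03, Psmd10 at 0.20 and Psmd9 at -0.20. Psmd9 signals were 339.6, 381, 309.8 and 330.0 in male shams 1 to 4, 271, 312, 314 and 339.6 in male TAC 1, 2, 4 and 5, 368, 375, 351 and 441 in female shams 1 to 4, and 388, 263, 280.0 and 348 in female TAC 1, 2, 3 and 5. The Psmd9 groups overlapped in both sexes (95% interval -0.44 to 0.04, adjusted p = 0.220).

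The core and the cap were close to each other as wholes. In the average over the sexes, 4 of 14 core genes rose and 1 fell (median 0.06), and 4 of 17 cap genes rose and 1 fell (median 0.03). Of all genes tested, 13.4% rose and 13.1% fell. The genes that rose include Psma6 in the core and Psmd11 in the cap, and the probe sets of each went both ways. In males the medians were 0.12 for the core and 0.11 for the cap, and in females 0.06 and 0.05. To see single animals, each gene was set to 0 at its mean over the 16 arrays and the median was taken over the genes of a particle. The core median ran from -0.14 to 0.06 in male shams, -0.03 to 0.14 in male TAC, -0.07 to -0.05 in female shams and -0.02 to 0.08 in female TAC. The female TAC arrays thus all lay above the female shams for the core, and the male groups overlapped. The cap median ran from -0.10 to 0.03 in male shams, 0.04 to 0.14 in male TAC, -0.11 to 0.13 in female shams and -0.06 to 0.05 in female TAC, so that here the males stood apart and the females overlapped. The median over all genes stayed between -0.03 and 0.06. These medians are a description of the lists and were not tested.

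**Figure D3:**
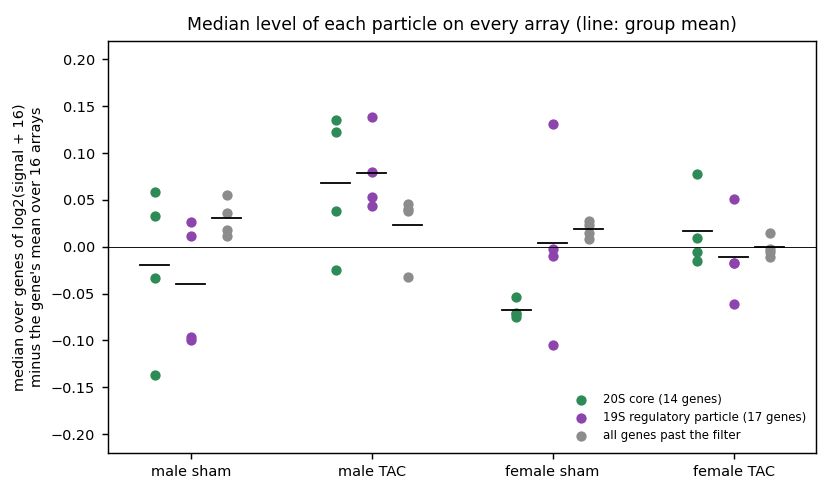
Median over the genes of the 20S core (14 genes, green), the 19S regulatory particle (17 genes, purple) and all genes past the filter (grey) on each array, as log2(signal + 16) minus the gene's mean over the 16 arrays. Lines are group means of 4 arrays, and the particle medians span -0.14 to 0.14.

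The sexes were compared directly. No member probe set differed between the female and the male response (0 of 52 by limma, against 0 of 13576 in all), and 6 of 52 were below an unadjusted p of 0.05 (11.5%, against 6.61%). The smallest p was that of the Psmd4 probe set 1425859_a_at, with a female minus male response of -0.67 (unadjusted p = 0.00237, adjusted p = 0.536). Psmd4 signals were 771, 539, 709.9 and 698 in male shams 1 to 4, 761, 849.7, 1047 and 1002 in male TAC 1, 2, 4 and 5, 928, 904, 919 and 1081 in female shams 1 to 4, and 805, 765, 858 and 778 in female TAC 1, 2, 3 and 5. Its male difference was 0.42 (adjusted p = 0.0370) and its female difference -0.25 (adjusted p = 0.245). All female TAC arrays were below all female shams, and in males only male TAC 1 was within the sham range. On 1418874_a_at, the Psmd4 probe set of highest mean, there was no female fall. It was at 0.27 in males (adjusted p = 0.131) and 0.07 in females (adjusted p = 0.756). Its female minus male response was -0.20 (adjusted p = 0.883). Of the 34 genes, 23 had the same sign in both sexes (67.6%, against 71.6% of all genes). Within sham, 0 of 52 differed between females and males (0.309% of all probe sets passed; at an unadjusted p of 0.05, 5 of 52 against 10.5% of all). Within TAC, 0 of 52 differed as well (0.0663% of all; 5 of 52 unadjusted, against 6.44%).

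Several of these genes are read by more than 1 probe set. Of the 14 genes with at least 2 tested probe sets, 5 had averaged differences of opposite sign (35.7%, against 46.3% of the 2834 such genes on the array), and Psmd11 alone was called in both directions (7.14%, against 4.2%). The median spread between probe sets of 1 gene was 0.31 for the members and 0.40 for all genes. Among genes whose probe sets disagree, the widest members were Psma6 (1.03) and Psmd11 (0.93). The letters in a probe set's name tell how specific its probes are: in this design _a marks probes shared by transcripts of 1 gene, _s and _x probes that can also match other genes. A split by these letters was made after the values were seen. Of 27 member probe sets with no such letter, 1 rose and 2 fell (3.70% and 7.41%, against 9.17% and 16.5% of all such probe sets), namely Psma7, Psma1 and Psmd1, and their median was 0.01. Of 17 with _a, 7 rose and 1 fell (41.2% and 5.88%, against 15.7% and 18.2%). Of 6 with _x, 3 rose and 0 fell (50.0% and 0%, against 33.8% and 5%), and of 2 with _s 1 rose and 0 fell (50.0% and 0%, against 15.4% and 14.6%). Over the whole array the median difference was 0.20 for _x and -0.06 for probe sets with no letter.

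**Figure D4:**
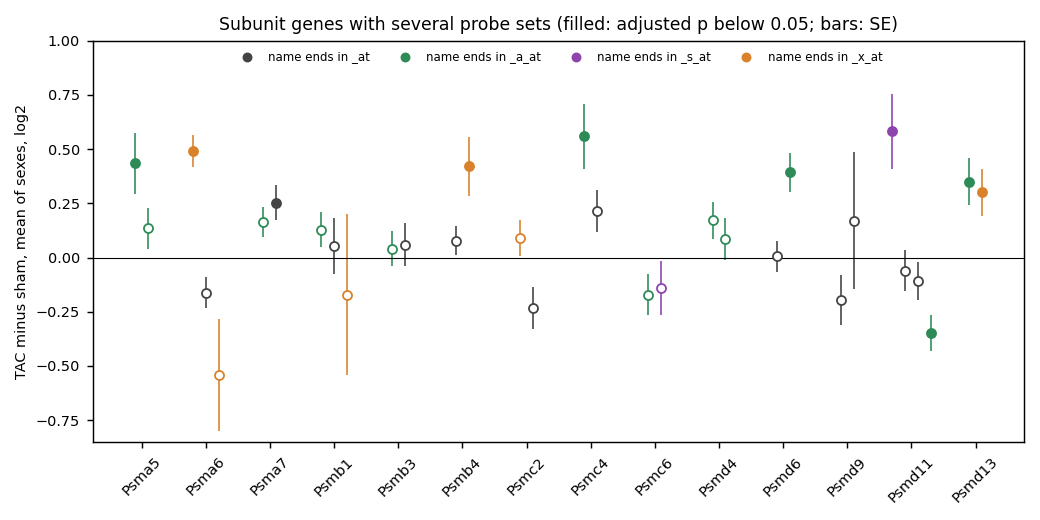
Averaged TAC minus sham difference (log2, ± SE) of every tested probe set of the 14 subunit genes with at least 2, coloured by the ending of the probe set's name; filled points passed adjusted p below 0.05. Psma6 and Psmd11 show the widest spread, 1.03 and 0.93.

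The neighbours of the subunits in the pathway were counted from a list of 36 genes, of which 26 were tested. In the average 4 of them rose and 1 fell (median -0.08), beside the shares of all genes given above. In males 1 rose and 2 fell (median -0.14, beside 8.1% and 7.77% of all genes), and in females 0 passed (median -0.01, beside 6.37% and 6.69%). Pomp, the chaperone that starts beta ring assembly, rose by 0.28 in the average (adjusted p = 0.0107) and by 0.38 in males (adjusted p = 0.0215). Psmg3, a chaperone of the alpha ring, rose by 0.66 (adjusted p = 0.0134). Sem1, the small lid subunit outside the Psmd family, rose by 0.21 (adjusted p = 0.0266). Ube3c, a ubiquitin ligase that rides on the proteasome, fell by 0.42 on the log2 scale (adjusted p = 0.00618) and by 0.57 in males (adjusted p = 0.0138), and its other probe set had the opposite sign (0.33).

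Of the immunoproteasome subunits, which replace the catalytic beta subunits in immune and interferon-treated cells, Psmb10 rose by 0.42 in the average (adjusted p = 0.0218), while Psmb8 and Psmb9 did not pass (adjusted p = 0.193 and 0.953). Psme1, a subunit of the activator that opens the core without ubiquitin, fell in males by 0.50 on the log2 scale (adjusted p = 0.0418), was at 0.10 in females (adjusted p = 0.759), and the 2 responses did not differ by the test (0.60, adjusted p = 0.669). The transcription factor genes Nfe2l1 and Nfe2l2 did not pass (adjusted p = 0.145 and 0.450 in the average), nor did Ngly1 (0.0880), which encodes an enzyme that processes Nfe2l1. None of the 7 tested genes of substrate delivery passed, Vcp among them (adjusted p = 0.519). The 5 listed genes of ubiquitin and its activation were not analysed here.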

How the data were processed

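RNA of 16 left ventricles was measured on 16 Affymetrix arrays. The deposited values are signal intensity per probe set on a linear scale, made with GCOS per the submitters' processing notes. Version, settings, filters and detection calls are not given in the sources used here. The authors had scaled the arrays: the mean signal, trimmed by 2% at each end, was 500.21 to 500.25 on every array, and the median signal 189.7 to 222.3. That scaling was kept.

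Signals were taken as log2(signal + 16), and fold changes are on that scale, which understates changes of dim genes. The 64 AFFX controls and the dimmest 40% of the other 22626 probe sets (mean signal below 130.8) were left out. The number of arrays limits the precision. limma 3.58.1 in R 4.3.3 was fitted to all 13576 remaining probe sets, with 4 group means, an intensity trend, 2-sided tests, empirical Bayes moderation and Benjamini-Hochberg adjustment over them. Every adjusted p above is from this fit or a stated alternative, and the SE and 95% intervals are from it too. The script was tested on simulated data.

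Names came from the platform annotation, which gave 20380 probe sets exactly 1 symbol. The probe set of highest mean over the 16 arrays stands for a gene. Genes described singly are the 3 catalytic ones, those past the threshold (up to 12), and the smallest p of each place in the particle. Members, lists and rules were chosen with earlier results of these data known. Alternatives were other scalings, pseudocounts of 1 and 64, no filter or a filter on the dimmest 60%, no trend, array weights, only the groups compared, 1 probe set per gene, a replicate block, quality covariates and each array left out. The split by probe set letters was added after the data were seen. The 4 samples of a group are labelled biological replicates, numbered as in their titles.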

Additional observations from a re-analysis of the deposited data

Results flagged for a closer look

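Of 56 groups checked (14 genes in 4 groups), 4 held an array whose gap to the nearest other array took up more of the group's range than Dixon's 95% critical value allows for 4 samples, where chance gives about 1 in 20. For Psmd11 (1437080_s_at), male TAC 1 had a signal of 2951.4 while the rest of male TAC had 5846 to 6164, and the gap took up 0.928 of the range. For Psmd1, male TAC 2 had 1729.6 against 2155 to 2248 (0.838). For Psmb7, male sham 2 had 11033.2 against 12850.2 to 13235 (0.838), and female sham 1 had 9120.2 against 11273 to 11452 (0.931). The 4 arrays are all different.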

How the results depend on the processing

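The deposited scaling fixes part of the balance of rises and falls. Median centring moved the median of all probe sets in females from -0.03 to 0.08, and that of the members from 0.06 to 0.17. The count of 15 member probe sets called in the average was 14 to 18 under the other scalings, pseudocounts, filters, no trend and array weights, and 10 of 34 with 1 probe set per gene. It was 4 with the 18S signal and 1 with the Gapdh ratio as a covariate, 3 on probe sets with no letter, and 12 to 15 without single arrays. The male count of 6 was 3 with no trend, 2 with only the groups compared, 0 with either covariate and 1 on probe sets with no letter. Without single arrays it was 1 to 7: 2 without male TAC 2, 1 without male TAC 5, 3 without male sham 1 or 4 and 2 without male sham 3. The female count of 8 was 5 with no trend, 4 with the 18S signal, 1 with the Gapdh ratio and 1 on probe sets with no letter. Without single arrays it was 5 to 9, and 5 without female TAC 2, female TAC 5 or female sham 3. The 3 comparisons of the sexes kept 0 called members under every alternative run.

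The replicate numbers are only names: the 19 same-numbered pairs of arrays correlated at -0.035 to 0.115 in their deviations from group means, and 3 of 16 arrays correlated best with their own number. With the number as a replicate block the calls were 3 in males, 5 in females and 10 in the average. Of the calls described gene by gene, the block lost Psma6 (adjusted p = 0.0614) and Psmd13 (0.0793) in males, Psmb5 (0.1001) and Psma5 (0.0618) in females, and Psmb5 (0.1001), Psmd13 (0.0544), Psma5 (0.119) and Psmd1 (0.0622) in the average. Psmd1 in the average turned from -0.24 to 0.052 with the Gapdh ratio. Why these counts moved was not tested. Detection calls were not used, which limits what a dim signal can say.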
